A study of Mus musculus with 6 samples.

Results

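The D cyclin module of G1 control was examined in URE cells, a mouse leukaemia line, with and without a hairpin against Hlx. Its 9 genes encode the 3 D cyclins (Ccnd1, Ccnd2, Ccnd3), the kinases that they activate (Cdk4, Cdk6), 3 kinase inhibitors (Cdkn1b, Cdkn2c, Cdkn2d) and the retinoblastoma protein (Rb1). They were chosen by name, with earlier results of these data known. Each had to have a probe set whose platform annotation gave its symbol alone, and all 9 were found among the 19938 genes tested. Together they had 10 probe sets, of which 2 belonged to Cdkn1b.

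The shHLX group (3 arrays) was infected with a lentivirus that carries a hairpin against Hlx, a homeobox transcription factor gene, and the shControl group (3 arrays) with the same vector carrying a hairpin against luciferase. The vector also encodes a green fluorescent protein by which infected cells were sorted, and the labels place the sort before the days of culture in one field and after them in another. Only 1 line was used, and as background its name refers to the upstream regulatory element of the PU.1 gene, Spi1, which the mice that gave rise to the line lack, in both groups alike. The study asked what Hlx does in blood cell differentiation and in tumour growth.

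Signals are log2 values of probe sets, so a difference of 1 is a doubling. Probe sets differ in how brightly they hybridise, so each gene is compared between groups. Where signals are set beside the median of all genes or given as list means, they describe brightness and not relative expression. Differences are given as shHLX minus shControl, with limma's adjusted p over all genes and a threshold of 0.05. Detection values were not used, so a dim probe set may or may not exceed background. Array medians over the genes tested ran from 7.33 to 7.44. The arrays shHLX 3 and shControl 1 stood apart from the other 4 on the second principal component (18.1% of the variance), for which the labels name no batch, and results are given without these 2 arrays where that changes them. Hlx itself gave 10.10 ± 0.056 on the shHLX arrays and 10.18 ± 0.048 on the shControl arrays (SD, n = 3 each) and did not pass the test (adjusted p = 0.479), so the arrays do not show the knockdown and each direction rests on the labels. Among 14 myeloid markers described further below, Itgam was called higher, Mpo, Cebpe, Kit and Gfi1 lower, and 9 were not called (limma adjusted p). Of those not called, the granule protease gene Elane gave 13.95 with shHLX and 14.00 with shControl, and Spi1 gave 10.34 in both groups. Ptprc, the pan-leukocyte gene CD45, gave 6.06 with shHLX and 6.01 with shControl, and the progenitor gene Cd34 gave 5.97 with shHLX and 6.05 with shControl. Whether any of these signals exceeds background was not tested.

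In G1, mitogens and cytokines raise the D cyclins, which bind CDK4 or CDK6, and the active kinases phosphorylate the retinoblastoma protein. Unphosphorylated retinoblastoma protein holds E2F factors and restrains S phase genes. The INK4 proteins p18 (Cdkn2c) and p19 (Cdkn2d) block CDK4 and CDK6, whereas p27 (Cdkn1b) inhibits CDK2 complexes and also helps D cyclins to assemble with their kinases. Blood cells depend on Ccnd2, Ccnd3 and Cdk6 in particular, and the module is regulated largely by phosphorylation and protein turnover, which arrays do not measure.

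Of the 9 genes, Ccnd2 and Rb1 rose, Ccnd3 fell and 6 did not pass (limma adjusted p). Over all 19938 genes, 6.18% were called, 3.75% higher and 2.43% lower. The median difference was 0.06 over the 9 genes and -0.01 over all genes. The groups did not overlap for 7 of the 9, with 4 higher and 3 lower on the shHLX arrays. Over all genes that share was 26.2%, with 14.7% higher and 11.4% lower. An unadjusted limma p under 0.05 was reached by 6 of the 9 and by 19.4% of all genes. The mean signal of 8 of the 9 genes was above the median of all genes, and among genes above that median 10.1% were called and 39.5% did not overlap. These shares are given as a description, since the 9 genes were chosen with earlier results of these data known. All 9 differences were below 0.4 in size. In an exact two-sided permutation test 3 arrays against 3 cannot give a p below 0.1, the value of the 7 genes whose groups did not overlap.

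**Figure D1:**
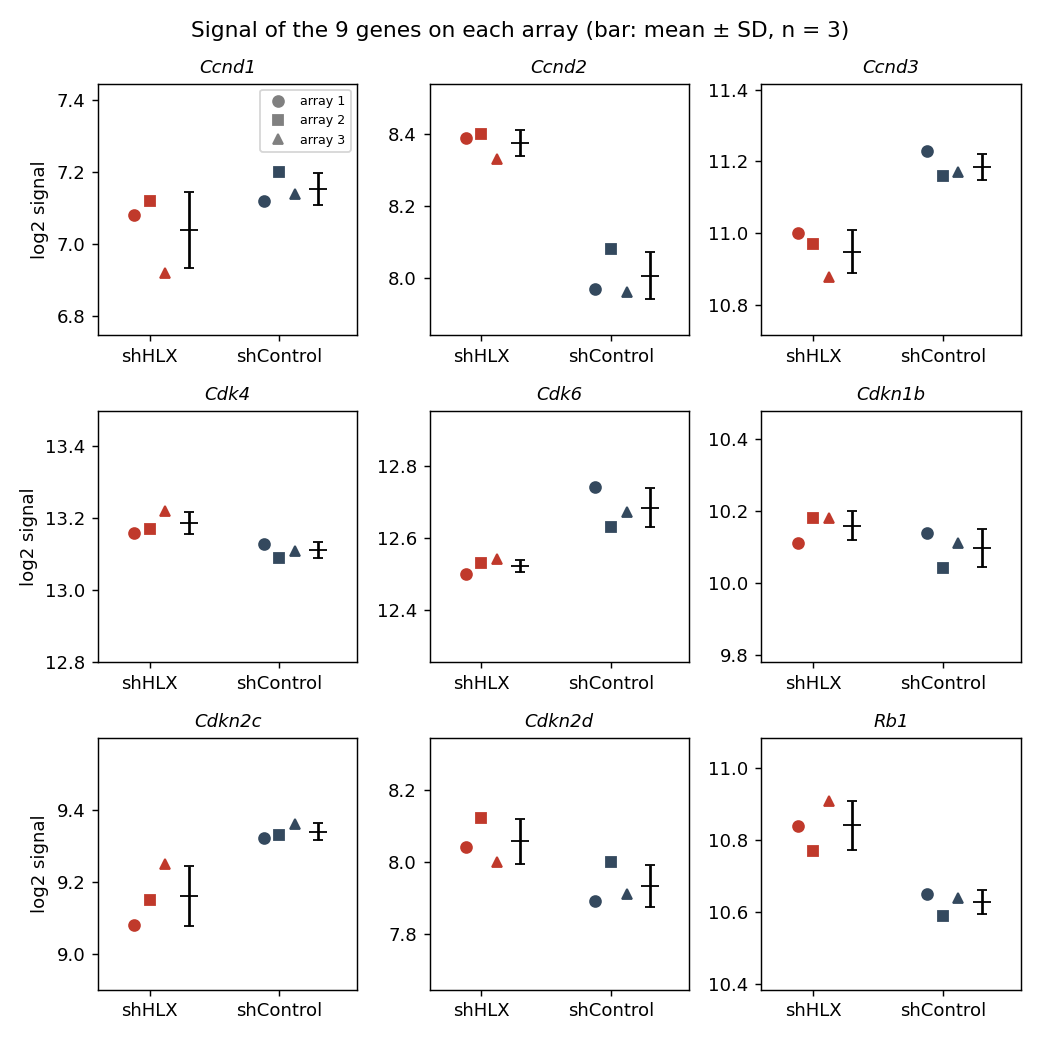
The log2 signal of the 9 genes is shown for each array, with shHLX left of shControl in each panel, the same span on every y axis and the mean ± SD (n = 3) as bars. Ccnd2 and Rb1 lie higher on all 3 shHLX arrays, Ccnd3, Cdk6 and Cdkn2c lie lower, and Ccnd1 and Cdkn1b overlap.

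Ccnd2 rose and its close relative Ccnd3 fell. Ccnd2, the D cyclin that cytokine signals and Myc are known to induce, had signals of 8.39, 8.40 and 8.33 on the shHLX arrays, against 7.97, 8.08 and 7.96 on the shControl arrays. Every shHLX array lay above every shControl array, by a wider margin than either group spanned. The rise was 1.29-fold, with a 95% confidence interval of 1.19 to 1.40 (limma adjusted p = 0.00406), and 2.21% of all genes had a smaller p. It passed whichever array was left out (adjusted p 0.00706 to 0.0268).

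Ccnd3, the D cyclin that lymphoid and erythroid cells rely on, had signals of 11.00, 10.97 and 10.88 on the shHLX arrays, against 11.23, 11.16 and 11.17 on the shControl arrays. The groups did not overlap, and shHLX 3 was the lowest array. The level fell to 85.0% of control (95% confidence interval 78.6% to 91.9%, limma adjusted p = 0.0299). This call was lost whichever array was left out (adjusted p 0.0625 to 0.106), with the difference between -0.26 and -0.20. Without both arrays that stand apart it was -0.18 (adjusted p = 0.155).

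Ccnd1, a D cyclin better known from epithelial and mesenchymal tissues, had signals of 7.08, 7.12 and 6.92 on the shHLX arrays and 7.12, 7.20 and 7.14 on the shControl arrays. The groups overlapped and shHLX 3 was the low array. The difference of -0.11 (95% confidence interval -0.26 to 0.03) did not pass (limma adjusted p = 0.375). Its probe set was the one of the 9 whose mean signal lay below the median of all genes.

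The promoter of Ccnd3 is shown as that of the called cyclin for which RefSeq sequences were at hand. Promoters were found for 6 of the 9 genes, with 8 starts, and not for Ccnd1, Ccnd2 and Rb1. Both start regions of Ccnd3 lie on the plus strand of mouse chromosome 17 (RefSeq, GRCm38.p6), at chr17:47504801-47505100 and chr17:47593217-47593516. Capitals mark the GC box GGGCGG on either strand (CCGCCC where it runs on the other), which each region held at 2 places and 35.7% of all 32851 promoter regions in the table held.
Ccnd3 first start: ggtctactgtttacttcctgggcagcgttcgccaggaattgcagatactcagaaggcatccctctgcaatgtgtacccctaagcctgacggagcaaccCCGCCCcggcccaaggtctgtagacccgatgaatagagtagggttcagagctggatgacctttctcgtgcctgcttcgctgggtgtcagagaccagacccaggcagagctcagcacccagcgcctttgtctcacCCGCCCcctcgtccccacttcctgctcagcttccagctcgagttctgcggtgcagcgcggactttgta
Ccnd3 second start: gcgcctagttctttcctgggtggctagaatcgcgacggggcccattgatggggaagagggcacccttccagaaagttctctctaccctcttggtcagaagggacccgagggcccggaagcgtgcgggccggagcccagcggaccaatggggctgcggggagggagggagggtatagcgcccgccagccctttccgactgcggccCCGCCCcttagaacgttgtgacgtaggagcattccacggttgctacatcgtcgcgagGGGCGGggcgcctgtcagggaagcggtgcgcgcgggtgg

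Neither region held an E-box, an E2F motif, a STAT motif or a CRE in the letters searched. These were CACGTG for the E-box, which 7.15% of all regions held, TTTCGCGC, TTTGGCGC, TTTCCCGC or TTTGCCGC for E2F (2.26%), TTCNNNGAA for STAT (8.3%) and TGACGTCA for the CRE (1.79%), each on both strands. None of the 8 start regions of the module held the E2F, STAT or CRE letters.

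Neither kinase passed by limma's adjusted p. Cdk6, the partner of D cyclins that is prominent in blood cells, had signals of 12.50, 12.53 and 12.54 on the shHLX arrays, against 12.74, 12.63 and 12.67 on the shControl arrays. The shHLX arrays spanned 0.0321 and all lay below the shControl arrays. The level was 89.4% of control (95% confidence interval 83.0% to 96.2%) and did not pass (limma adjusted p = 0.0923), although it passed when the variance model had an intensity trend (adjusted p = 0.00162) and in 3 other settings at the same threshold.

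Cdk4 had signals of 13.16, 13.17 and 13.22 on the shHLX arrays and 13.13, 13.09 and 13.11 on the shControl arrays. The groups did not overlap, but the gap was small. The ratio of 1.05 (95% confidence interval 0.984 to 1.13) did not pass (limma adjusted p = 0.388).

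Cdk4 is a known target of Myc, and its promoter is shown because it held the E-box letters CACGTG at 4 places, the most of the 8 start regions. It lies on the plus strand at chr10:127063285-127063584 (RefSeq, GRCm38.p6). The capitals mark these E-boxes, which begin at positions -172, -118, -98 and -11 from the start, and 3 GC boxes (CCGCCC on this strand), 2 of which share a base in 1 run.
Cdk4: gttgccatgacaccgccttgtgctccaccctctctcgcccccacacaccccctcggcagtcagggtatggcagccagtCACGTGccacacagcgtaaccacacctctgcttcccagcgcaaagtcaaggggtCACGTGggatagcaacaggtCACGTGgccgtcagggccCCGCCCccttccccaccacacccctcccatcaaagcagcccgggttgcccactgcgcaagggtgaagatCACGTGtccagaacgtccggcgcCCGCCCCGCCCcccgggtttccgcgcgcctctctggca

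Single E-boxes were found in the Cdk6 region and in the region of 1 of the 2 Cdkn2c starts. Myc itself, at 12.66 ± 0.026 on the shHLX arrays and 12.78 ± 0.011 on the shControl arrays (SD, n = 3 each), did not pass (limma adjusted p = 0.163), though it passed with an intensity trend (adjusted p = 0.00452), and with no variance moderation (0.0487) or among genes above the median of signal (0.0386).

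No inhibitor passed by limma's adjusted p, although both INK4 genes had an unadjusted p under 0.05, and these lay on opposite sides of control. Cdkn2c, which encodes p18 and restrains progenitor self-renewal, had signals of 9.08, 9.15 and 9.25 on the shHLX arrays, against 9.32, 9.33 and 9.36 on the shControl arrays. All shHLX arrays were below all shControl arrays, and they spread over 0.17. The level was 88.3% of control (95% confidence interval 81.1% to 96.2%, limma adjusted p = 0.108), and 4 other settings called it lower.

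Cdkn2d, which encodes p19 of the INK4 family, had signals of 8.043, 8.124 and 8.001 on the shHLX arrays, against 7.888, 7.999 and 7.908 on the shControl arrays. The groups all but touched, at 8.001 on shHLX 3 and 7.999 on shControl 2. The ratio of 1.09 (95% confidence interval 1.00 to 1.19) did not pass (limma adjusted p = 0.251).

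Cdkn1b, which encodes p27, was measured by both of its probe sets. The brighter had signals of 10.11, 10.18 and 10.18 on the shHLX arrays and 10.14, 10.04 and 10.11 on the shControl arrays. The groups overlapped, and the difference of 0.06 (95% confidence interval -0.05 to 0.17) did not pass (limma adjusted p = 0.538). The dimmer probe set gave 6.34, 6.23 and 6.61 with shHLX and 6.36, 6.12 and 6.06 with shControl, again overlapping, with a difference of 0.22 (95% confidence interval -0.05 to 0.48, limma adjusted p = 0.359 over all 21789 probe sets with 1 symbol).

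Rb1 rose narrowly. It had signals of 10.84, 10.77 and 10.91 on the shHLX arrays, against 10.65, 10.59 and 10.64 on the shControl arrays. Every shHLX array lay above every shControl array, with shHLX 3 the highest. The rise was 1.16-fold (95% confidence interval 1.07 to 1.26), just inside the threshold (limma adjusted p = 0.0497). The call was lost whichever array was left out (adjusted p 0.0504 to 0.153), and without both arrays that stand apart (0.163), while the difference stayed between 0.18 and 0.25.

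**Figure D2:**
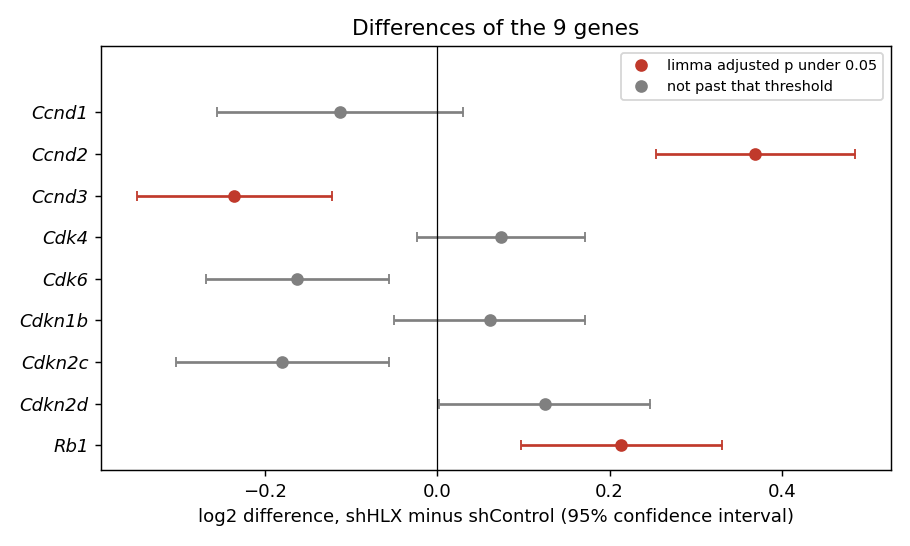
Each point is the log2 difference of a gene, shHLX minus shControl, with limma's 95% confidence interval, and the 3 genes past the threshold are in red. Ccnd2 (0.37) and Rb1 (0.21) lie to the right of 0 and Ccnd3 (-0.24) to the left, and all intervals end within 0.5 of 0.

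Among the relatives of Rb1 and the factors they hold, E2f4 rose and the others did not pass. Of 17 genes of other pocket proteins, E2F and DP factors and the MuvB complex, 1 rose and none fell by limma's adjusted p, 2 had an unadjusted p under 0.05, and the list had a median difference of 0.02. Over all genes, 6.18% were called and 19.4% had an unadjusted limma p under 0.05. E2f4, which encodes the E2F factor that sits with pocket proteins on silent promoters, had signals of 11.01, 11.06 and 10.98 with shHLX, against 10.64, 10.73 and 10.71 with shControl. All shHLX arrays were higher, and the rise of 1.25-fold, with a 95% confidence interval of 1.16 to 1.35 (limma adjusted p = 0.00554), passed whichever array was left out. The next by p were Lin52 (0.14), E2f6 (0.11) and Tfdp2 (-0.09), as differences that did not pass, and the pocket protein genes Rbl1 (0.02) and Rbl2 (-0.01) were near 0.

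None of 10 genes of other G1 cyclins, kinases, their activators and chaperone passed by limma's adjusted p, while 4 had an unadjusted p under 0.05, and the median difference was 0.03. The share of all genes with such a p was 19.4%. The groups did not overlap for 7 of the 10, against 26.2% of all genes and 39.5% of those above the median of signal. Cdk2, the partner of cyclins E and A, gave 10.81 ± 0.013 with shHLX and 10.96 ± 0.020 with shControl (SD, n = 3 each). All its shHLX arrays were lower, and the difference of -0.15 did not pass (limma adjusted p = 0.0846) but did in 5 other settings at that threshold (adjusted p from 0.00509). Ccne2 (0.18) and Cdk7 (0.16) were above control and Ccna1 (-0.11) below, as differences that did not pass. With the mean of its probe sets in place of the brightest, Cdk7 differed by 0.06 (limma adjusted p = 0.485). Of the other inhibitor genes, Cdkn2a (-0.10), Cdkn1c (-0.05) and Cdkn2b (-0.02) did not pass, and the last 2 changed sign in some settings. Cdkn1a, without a probe set under that symbol alone, was not analysed here.

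Of 12 measured genes for the turnover of D cyclins and p27, Usp2 fell, Fbxo31 and Rnf123 rose and 9 did not pass (limma adjusted p), with a median difference of 0.03. The share called was 6.18% over all genes and 10.1% among genes above the median of signal. Usp2, which encodes a deubiquitinase known to stabilise cyclin D1, had signals of 9.10, 9.15 and 9.14 with shHLX, against 9.77, 9.79 and 9.82 with shControl. The groups lay far apart relative to their spread, and the level was 63.2% of control (95% confidence interval 59.1% to 67.6%, limma adjusted p = 8.48e-05).

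Fbxo31, which encodes an F-box protein that targets cyclin D1, rose 1.22-fold (95% confidence interval 1.14 to 1.30, limma adjusted p = 0.00583), with 10.89, 10.83 and 10.85 on the shHLX arrays against 10.57, 10.58 and 10.54 on the shControl arrays. Rnf123, which encodes the catalytic subunit of a ubiquitin ligase of p27, rose 1.22-fold (95% confidence interval 1.14 to 1.30, limma adjusted p = 0.00584), with 10.09, 10.12 and 10.08 on the shHLX arrays against 9.81, 9.84 and 9.79 on the shControl arrays. These 3 genes passed whichever array was left out. Skp2, the F-box protein that targets p27, differed by -0.08 and did not pass.

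Among 16 measured genes that act upstream of the D cyclins, Pim1 rose, Kit fell and 14 did not pass, with a median difference of -0.01. The share called over all genes was 6.18%. Pim1, a kinase gene induced by STAT5, had signals of 11.23, 11.27 and 11.23 with shHLX, against 10.75, 10.83 and 10.71 with shControl. Pim1 was 1.39 times its control level, with a 95% confidence interval of 1.29 to 1.51 (limma adjusted p = 0.000876). Kit, the receptor of stem cell factor, had signals of 9.99, 10.07 and 10.02 with shHLX, against 10.73, 10.76 and 10.76 with shControl, or 60.4% of control (95% confidence interval 56.4% to 64.7%, limma adjusted p = 6.37e-05). Fos differed by -0.20, with all shHLX arrays lower, and did not pass (limma adjusted p = 0.116). It was called lower among genes above the median of signal (0.0321). The receptor genes Il3ra (0.06) and Csf2rb (-0.03), and Stat5a (-0.10) and Stat5b (0.02), did not pass.

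Of 31 measured E2F target genes of S phase, 4 fell and none rose (limma adjusted p). Over all genes, 2.43% were called lower and 3.75% higher. The share called in either direction was 10.1% among genes above the median of signal. The differences were negative for 24 of the 31, or 77.4%, against 54.6% of all genes, with a median of -0.04 against -0.01. The groups did not overlap for 14 of the 31, against 26.2% of all genes and 39.5% of those above the median of signal. The genes that fell were Mybl2 (-0.35, adjusted p = 0.0168), Cdca7 (-0.26, 0.0125), the thymidine kinase gene Tk1 (-0.25, 0.0343) and the helicase subunit gene Mcm6 (-0.22, 0.0402). Mybl2, a Myb family factor that joins MuvB, had signals of 9.51, 9.72 and 9.57 with shHLX, against 9.91, 10.01 and 9.93 with shControl, without overlap. Gins1 (-0.20) had the smallest p of those that did not pass (limma adjusted p = 0.0748). Pcna (0.06), Rrm1 (0.09) and Mcm2 (-0.04) did not pass either.

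These 4 calls depended on which arrays were kept, and all but that of Cdca7 on other settings too, while the differences stayed negative. Mybl2 stayed between -0.41 and -0.30 in all 19 alternative settings and Cdca7 between -0.29 and -0.24. Tk1 stayed between -0.28 and -0.21 and Mcm6 between -0.25 and -0.20. Calls over all genes were also fewer with fewer arrays, at 741 without both arrays that stand apart against 1233 with all 6. Cdca7 was lost without shHLX 1, shControl 2 or shControl 3 (adjusted p up to 0.0601), Mybl2 also without shHLX 3 (up to 0.0702), Tk1 without any array but shHLX 2 (up to 0.144) and Mcm6 without any but shHLX 3 (up to 0.159). Without both arrays that stand apart none of the 31 passed and 26 were negative. In the other 4 lists with calls among the module and its pathway, only Ccnd3 and Rb1 lost theirs without these 2 arrays.

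**Figure D3:**
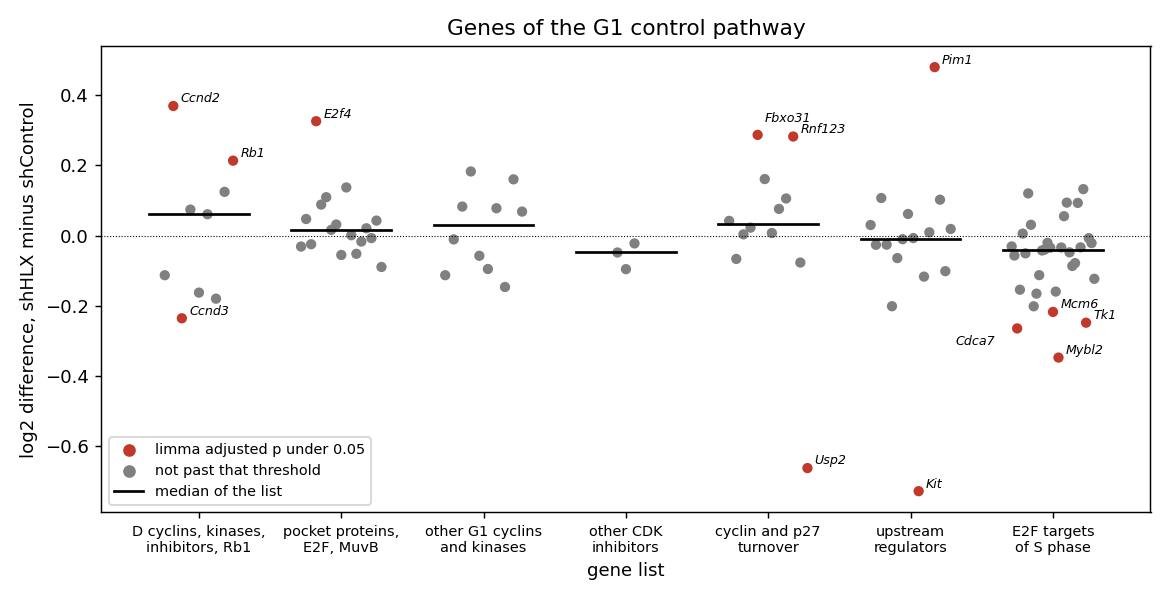
Each point is the log2 difference of a measured gene, shHLX minus shControl, by gene list, with genes past the limma threshold in red and the list median as a bar. The list medians lie between -0.05 and 0.06, and Kit (-0.73) and Usp2 (-0.66) lie farthest from 0.

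Of 14 myeloid genes, Itgam rose, Mpo, Cebpe, Kit and Gfi1 fell and 9 did not pass (limma adjusted p), where 6.18% of all genes were called. The median difference of the 14 was -0.08, against -0.01 over all genes, and their part in the differences of the module was not tested. Gfi1 was lost without shControl 3 (adjusted p = 0.0555). Mpo passed whichever array was left out but was lost in 1 of 19 alternative settings (limma adjusted p = 0.0558). Its signals were 10.22, 9.61 and 9.56 on the shHLX arrays, an SD of 0.37, against 11.25, 11.20 and 11.33 on the shControl arrays. The mean log2 signal over these 14 was 10.38 to 10.42 on the shHLX arrays and 10.57 to 10.60 on the shControl arrays. Of 17 measured markers of lymphoid, erythroid and megakaryocyte, or stromal, endothelial and epithelial cells, none passed by limma's adjusted p. An unadjusted limma p under 0.05 was reached by 3 of the 17 and by 19.4% of all genes. The list means of these markers lay between 5.88 and 6.78 with shHLX and between 5.87 and 6.86 with shControl.

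Over the 6 arrays, the genes whose profiles were most like that of Ccnd2 were Tenm4 (Pearson r = 0.9992), Nfkbia (0.9975) and Mylk (0.9972), all of which rose (limma adjusted p 0.00579 to 0.00831). For Ccnd3 they were Adamts5 (0.9951), Sf3b5 (0.9939) and Gins2 (0.9918), of which Adamts5 passed, as a fall. For Rb1 they were Baz2b (0.9968), Prpmp5 (0.9941) and Msi2 (0.9938), of which Prpmp5 passed, as a rise. These r are over 6 points that share the group difference, were the highest with unnamed gene models, small RNAs and olfactory and vomeronasal receptors passed over, and are given as a description.

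**Figure D4:**
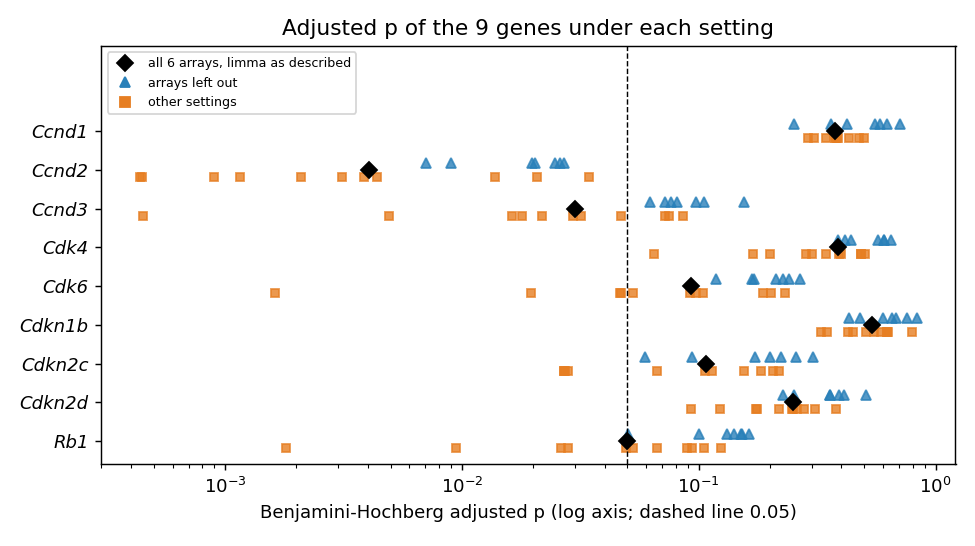
Each mark is limma's Benjamini-Hochberg adjusted p of a gene on a log axis, with all 6 arrays (diamonds), with arrays left out (triangles) and under the other settings (squares). Ccnd2 lies left of the dashed line at 0.05 throughout, at most at 0.0343, while Ccnd3 and Rb1 lie on both sides of it and Ccnd1, Cdk4, Cdkn1b and Cdkn2d lie right of it throughout.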

How the data were processed

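The deposited table gives a log2 signal for each of 35556 probe sets on each of the 6 arrays. The authors made these log2 values with RMA, which corrects background, normalizes between arrays and summarises probes, in Affymetrix Power Tools 1.178, per the submitters' processing notes. The build and the definition of probe sets are not stated in the sources at hand. Quantile normalization removes global shifts between arrays. RNA was amplified from small amounts, per the labels' protocols, which can add spread. The number of arrays limits the precision.

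The platform annotation names 1 symbol for 21789 probe sets, several for 1621 and none for 12146, and the last 2 kinds were left out. Where a gene had more than 1 probe set (999 genes), the brightest stood for it, with no filter on dim signal. The comparison used limma 3.58.1 under R 4.3.3 (lmFit and eBayes, no covariates, two-sided, Benjamini-Hochberg over 19938 genes). Single genes were also given an exact permutation test. The code was tested on simulated data. Plots used matplotlib 3.10.9 (Python 3.11.15). Promoters came from RefSeq (GRCm38.p6).

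The 9 genes and the lists were chosen with earlier results of these data known. Named genes were the 9 genes, Hlx, up to 4 per list with the smallest p, and the 3 closest profiles to Ccnd2, Ccnd3 and Rb1. Unnamed gene models and clones, microRNAs, other small RNAs, and olfactory and vomeronasal receptors were passed over in the last. Other genes were named after their values were seen. No label says that replicates were separate cultures, so the p-values cover the spread among these arrays alone, and that spread may be technical.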

Additional observations from a re-analysis of the deposited data

How the results depend on the processing

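Ccnd2 kept its direction and its call in all 19 alternatives (difference 0.35 to 0.41, limma adjusted p 0.000437 to 0.0343). Ccnd1 (18 alternatives, since it is not above the median of signal), Cdk4, Cdkn1b, Cdkn2d and Hlx (19 each) kept their sign and stayed uncalled. Ccnd3 kept its sign and lost its call in 10. With its difference at -0.24, adjusted p was 0.0750 without variance moderation, 0.0857 with all 35556 probe sets tested and 0.0720 with the replicate block. With any 1 array left out the difference was -0.26 to -0.20, and it was -0.18 without shControl 1 and shHLX 3, an alternative chosen after seeing the data. Rb1 kept its sign and lost its call in 13. It was 0.19 after a second quantile normalization (0.0664), 0.23 with arrays centred on their medians (0.0891), and 0.21 with a robust prior (0.0527), without moderation (0.106), with all probe sets (0.124) and with the replicate block (0.0936). It was 0.18 to 0.25 with any 1 array left out and 0.19 without both arrays that stand apart (0.163).

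The replicate numbers are shared between the groups, but same-numbered arrays did not deviate together (r of deviations from the group means -0.17, 0.13 and -0.15), so the numbers were not taken as pairs.

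Cdk6 and Cdkn2c were called lower in some settings. Cdk6 was -0.17 after a second quantile normalization (0.0463) and -0.16 among genes above the median of signal (0.0196), with an intensity trend (0.00162), with array weights (0.0468), and at a threshold of 0.10. Cdkn2c was -0.22 after the second normalization (0.0281) and with array weights (0.0269), and -0.18 above the median (0.0271) and with the trend (0.0270). The cause was not tested. Fewer genes were tested above the median and more with all probe sets, and the standard errors also differed. That of Cdk6 was 0.0456 in the main fit and 0.0388 above the median, and that of Cdkn2c was 0.0531 and 0.0465.

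The count of genes called higher among the 9 was 2, and it was 1 (Ccnd2) in 13 alternatives. The count called lower was 1. It was 3 after the second normalization, above the median, with the trend and with array weights, 2 at a threshold of 0.10, and 0 without moderation, with all probe sets, with the replicate block, without both arrays that stand apart and without any 1 array. Over all genes the count of 1233 was 2064 above the median, 2261 with the trend, 800 with the replicate block, 741 without both arrays and 698 to 901 with 1 array left out. Cdkn1c turned to 0.0084 with array weights and 0.060 without both arrays, and with 1 array left out it ran from -0.15 to 0.092, the highest without shHLX 3. Cdkn2b ran from -0.093 to 0.016 with 1 array left out, above 0 without shControl 2 or shControl 3. None of these values was called. Only 3 arrays per group and unknown background limit what small differences can show.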
